A study of Mus musculus with 9 samples.

Results

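The testicular transcriptome of Prm2-/- mice, which are infertile, was compared with that of pooled controls from both fertile genotypes, Prm2+/+ and Prm2+/-. The members were the 3 libraries labelled Prm2-deficient against the 3 WT and 3 Prm2-heterozygous libraries, which are all 9 libraries of the series. Genes entered when their mean over the 9 libraries was 10 or more normalized counts, that is, gene counts divided by 1 size factor per library. Of 38685 table entries, 14187 were kept, of which 12158 were protein-coding, 1650 were long non-coding RNAs (lncRNAs) and 379 were of other types. The 24498 others were not tested. The gene just inside this limit was Zik1, with a mean of 10.006, and the gene just outside it was Kcnip1, with a mean of 9.997. Of the tested genes, 169 had a mean under 10 in the controls and 317 had a mean under 10 in Prm2-/-, so that they passed through the other group.

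All mice were C57BL/6 males, and RNA was taken from testis after the tunica albuginea had been removed. The Prm2-/- and Prm2+/- animals carry Prm2 alleles made by CRISPR/Cas9 editing of oocytes. More than 1 allele entry is cited for these mice, and which of them the sequenced animals carried is not given in the sources used here. Prm2+/+ animals carry no edited allele. Ages of the animals are not given in the sources used here. The 3 libraries of each genotype are described as biological replicates, and p-values measure the spread between these libraries.

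Protamines are small, arginine-rich proteins that take the place of histones in the nuclei of elongating spermatids and pack the paternal genome. Transition proteins bind the DNA between the removal of histones and the arrival of protamines. Transcription ends as the nucleus condenses, so that protamine mRNA is made earlier, in round spermatids, and is stored before it is translated.

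The counts recovered from the normalized values summed to between 3629929 and 4490411 per library. Pearson's r of log2(normalized count + 1) across the tested genes, which are not independent replicates, was between 0.822 and 0.897 for pairs of a Prm2-/- and a control library. It was between 0.816 and 0.902 within the controls and between 0.911 and 0.920 within Prm2-/-. Replicate 3 of Prm2+/+ stood apart from the other 8 libraries. It alone was at a low level for 461 all-or-none genes, genes whose libraries fall onto a high and a low level, while any other library was alone at the low level for 25 to 68. Values that this library moved by more than 1.5 times, or across the threshold, are therefore given with and without it. Of the tested genes, 96.8% carry the number of a locus assembled from the reads, and their counts are estimates per assembled locus. In bulk tissue, fewer cells of a type and less RNA per cell cannot be told apart.

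Markers of the germ cells and of the somatic cells of the testis were present in both groups. The summed level of 15 markers of elongating spermatids was 260799 to 282651 normalized counts in the controls and 266558 to 282609 in Prm2-/-. For each of 12 marker lists, which covered spermatogonia, spermatocytes, round and elongating spermatids, Sertoli cells, Leydig cells, peritubular myoid cells, macrophages, endothelium, blood, epididymis and tunica, the ranges of the summed level overlapped between the groups. A called gene was found in 1 of these lists, that of the tunica.

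The targeted gene was examined first. Prm2 (ENSMUSG00000038015) occupies positions 10791380 to 10796134 of chromosome 16 (GRCm38, minus strand). Its normalized counts were 29757, 29716 and 39665 in Prm2+/+, 30174, 31011 and 34487 in Prm2+/-, and 34660, 36004 and 42766 in Prm2-/-. The highest control, replicate 3 of Prm2+/+, lay above the lower values of Prm2-/-, so that the groups overlapped. Prm2 mRNA averaged 32468 ± 3954 (SD, n = 6) in the controls and 37809.8 ± 4344 (SD, n = 3) in Prm2-/-, and the log2 fold change (LFC) was 0.22 (standard error 0.11, adjusted p = 0.739 in limma with Benjamini-Hochberg adjustment). An exact permutation test over the 84 choices of 3 of the 9 libraries gave a two-sided p of 0.0952, where 0.0119 is the smallest p that this design allows. The LFC was 0.28 without replicate 3 of Prm2+/+. Thus no loss of the Prm2 transcript was detectable, so this level cannot serve as a check on the genotype labels. The promoter of Prm2, from 250 bases before to 50 bases after the start of its RefSeq transcript (GRCm38.p6, chr16:10792056-10792355, minus strand), is shown since transcription of this gene starts there. A match to TATAAA, the motif of the TATA box, on the opposite strand is in capitals.
Prm2 promoter: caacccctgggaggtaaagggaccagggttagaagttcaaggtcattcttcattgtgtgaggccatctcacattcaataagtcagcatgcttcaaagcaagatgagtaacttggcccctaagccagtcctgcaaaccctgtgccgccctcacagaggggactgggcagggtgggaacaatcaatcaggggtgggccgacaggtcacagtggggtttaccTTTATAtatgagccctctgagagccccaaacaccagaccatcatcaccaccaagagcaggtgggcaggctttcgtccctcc

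Between Prm2-/- and the pooled controls, 18 genes rose and 3 fell past both thresholds of the study, an adjusted p under 0.05 and an LFC beyond 0.5 in either direction. The 18 are 0.127% of all tested genes and the 3 are 0.0211%. Most of these differences were large: 14 of the 21 genes were all-or-none, with 12 high in the 3 Prm2-/- libraries only and 2 low in these libraries only. The ranges of the groups did not overlap for any of the 21. Over all tested genes, they did not overlap for 2.4% in the higher and 2.26% in the lower direction, and the p before adjustment was under 0.05 for 977 (6.89%), of which 481 (3.39%) were higher and 496 (3.5%) lower. Leaving out replicate 3 of Prm2+/+, 29 genes rose and 4 fell, and all 21 genes were among these 33. Without replicate 3 of Prm2-/-, 37 rose, and without replicate 1 of Prm2+/-, 28 rose and 5 fell. Without replicates 1, 2 and 3 of Prm2-/- in turn, 13, 8 and 9 genes fell, and 6 fell without replicate 1 of Prm2+/+. edgeR on the recovered counts called 17 higher (0.12%) and 3 lower genes, all 20 among the 21, whereas DESeq2 called 74 higher (0.522%) and 30 lower genes (0.211%), with 20 of the 21 among them.

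**Figure D1:**
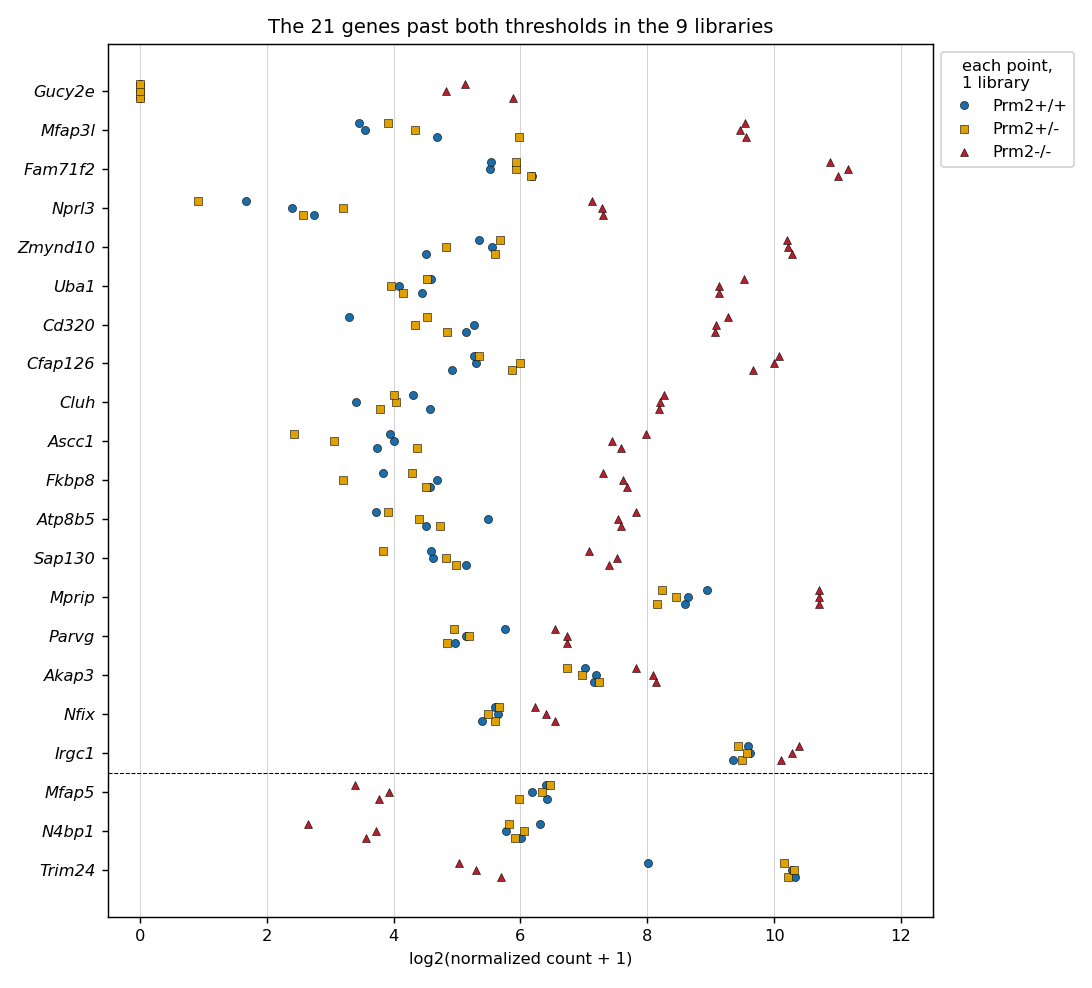
Level of the 21 genes past both thresholds, as log2(normalized count + 1), with 1 point per library and the genotype by colour and shape (3 libraries each). The 18 genes above the dashed line rose and the 3 below it fell in Prm2-/-, and the blue point of Trim24 near 8 is replicate 3 of Prm2+/+.

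The smallest p was that of Fam71f2, a testis-expressed gene of the FAM71 family (ENSMUSG00000079652, chromosome 6, 29279593 to 29290680). Its normalized counts were 2056, 2287 and 1886 in Prm2-/-, whereas the lowest, median and highest controls were 45.0, 60.2 and 71.3. All Prm2-/- libraries were far above all controls. The LFC was 5.14 (standard error 0.17, adjusted p = 4.17e-06 in limma), with 5.27 against Prm2+/+ alone and 5.001 against Prm2+/- alone. Uba1 (ENSMUSG00000001924, chromosome X, 20658326 to 20683179), the X-linked enzyme that activates ubiquitin as the first step of its conjugation, had 560, 559 and 737 normalized counts in Prm2-/- and 14.6, 18.9 and 23.2 as lowest, median and highest control. Uba1 rose by 4.96 on the log2 scale (standard error 0.18), also with an adjusted p of 4.17e-06 in limma. Its Y-linked paralogue Uba1y, chosen after its values were seen because reads may be split between both copies, had 24.3 to 40.7 in the controls and 34.8 to 44.4 in Prm2-/-.

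Of the called genes, 3 are members of lists of the cilium and the sperm tail. These lists were chosen with earlier results of these data known, so the count is a description. Zmynd10 (ENSMUSG00000010044, chromosome 9, 107547298 to 107551319), a cytoplasmic factor needed to assemble axonemal dynein arms, had 1246, 1187 and 1182 normalized counts in Prm2-/- against 21.9, 42.9 and 50.4 as lowest, median and highest control (LFC 4.98, standard error 0.26, adjusted p = 6.24e-05 in limma). Cfap126, also known as Flattop, which acts in the placement of basal bodies in ciliated cells, lies on chromosome 1 from 171113918 to 171126967. It had 811, 1021 and 1073 in Prm2-/- against 29.5, 39.2 and 63.0 (LFC 4.46, standard error 0.24, adjusted p = 6.24e-05 in limma). Both genes were at 1 high level in Prm2-/- and at 1 low level in both control genotypes. Akap3, a scaffold protein of the fibrous sheath of the sperm tail, had a smaller shift. It had 281, 273 and 226 in Prm2-/- against 106, 136 and 149 as lowest, median and highest control (LFC 0.96, standard error 0.13, adjusted p = 0.0321 in limma). Its ranges did not overlap, but without replicate 2 of Prm2+/-, replicate 1 or 2 of Prm2-/-, or replicate 1 or 2 of Prm2+/+ it missed the threshold (adjusted p = 0.0606 to 0.151 in limma), as it did against Prm2+/+ alone (0.109) and Prm2+/- alone (0.122).

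The promoters of Fam71f2, the called gene with the smallest p, and of Zmynd10 and Cfap126, in which a motif of ciliary genes was found, are given from 250 bases before to 50 bases after a RefSeq transcript start on GRCm38.p6. Fam71f2 is at chr6:29280891-29281190, Zmynd10 at chr9:107547054-107547353 and Cfap126 at chr1:171122795-171123094, all on the plus strand. For Cfap126, RefSeq lists 3 starts, and the promoter shown is that of the start farthest from the 5′ end of the gene. It was chosen because it holds an X-box match, which the promoters of the starts nearer the 5′ end do not. Capitals mark matches to TATAAA, the motif of the TATA box, and to the X-box, the site of RFX factors in ciliary genes. The TATAAA match of Zmynd10 lies at the far edge of the window, 250 bases before the start.
Fam71f2 promoter: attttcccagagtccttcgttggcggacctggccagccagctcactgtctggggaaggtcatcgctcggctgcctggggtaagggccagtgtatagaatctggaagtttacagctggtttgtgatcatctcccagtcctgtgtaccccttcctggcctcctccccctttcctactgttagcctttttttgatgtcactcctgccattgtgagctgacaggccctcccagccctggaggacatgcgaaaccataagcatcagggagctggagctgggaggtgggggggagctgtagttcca
Zmynd10 promoter: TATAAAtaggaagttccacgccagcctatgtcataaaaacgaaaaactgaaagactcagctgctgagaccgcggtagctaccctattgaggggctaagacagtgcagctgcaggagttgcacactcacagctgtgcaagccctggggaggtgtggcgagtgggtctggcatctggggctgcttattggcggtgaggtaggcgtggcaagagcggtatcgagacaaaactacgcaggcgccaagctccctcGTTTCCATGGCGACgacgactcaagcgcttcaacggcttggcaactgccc
Cfap126 promoter: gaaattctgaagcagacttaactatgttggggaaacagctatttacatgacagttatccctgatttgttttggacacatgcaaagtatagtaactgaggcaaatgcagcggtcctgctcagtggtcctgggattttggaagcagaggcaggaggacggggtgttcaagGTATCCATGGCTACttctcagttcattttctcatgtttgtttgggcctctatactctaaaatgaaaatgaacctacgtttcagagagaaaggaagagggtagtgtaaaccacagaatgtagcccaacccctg
Both strands of the promoters were searched, and the motifs shown do not overlap each other. Of the 21 called genes, 18 matched a promoter by symbol. The X-box was found in 2 of 16 matched genes that rose and in 0 of 2 that fell, while 0.888% of the tested genes with a promoter and 0.505% of all 32851 promoters held it. TATAAA was found in 3 of the 16, namely Mfap3l, Nprl3 and Zmynd10, against 9.16% of tested genes and 13.6% of promoters. The cAMP response element TGACGTCA, which CREM binds in spermatids, was found in 0 of the 16 and 0 of the 2, against 3.57% of tested genes and 1.79% of promoters. A match is a description of the letters in this window.

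Cluh, Fkbp8, Nprl3 and Ascc1, which were on none of the functional lists, were all-or-none and high in Prm2-/- only. Cluh, an RNA-binding protein for mRNAs of mitochondrial proteins, had 289, 294 and 305 normalized counts in Prm2-/- against 9.65, 15.3 and 22.8 as lowest, median and highest control (LFC 4.19, adjusted p = 7.55e-05 in limma). Fkbp8, an immunophilin anchored in the mitochondrial outer membrane, had 205, 195 and 156 against 8.22, 20.2 and 24.7 (LFC 3.35, adjusted p = 0.0036 in limma). Nprl3, a subunit of the GATOR1 complex that restrains mTORC1, had 157, 155 and 139 against 0.884, 4.62 and 8.22. Its LFC was 4.99 (adjusted p = 0.00311 in limma), and it passed the filter on low values only through Prm2-/-. With a mean of 50 or more as the filter, its adjusted p was 0.0739 in limma. Ascc1, a subunit of the ASC-1 transcriptional co-integrator complex, had 190, 174 and 250.3 against 4.42, 13.4 and 19.8 (LFC 4.07, adjusted p = 0.00369 in limma). Fkbp8 overlaps Kxd1, Ascc1 overlaps Anapc16, Nprl3 overlaps Mpg and Zmynd10 overlaps Gm34106, each on the opposite strand. The LFC was 0.22 for Kxd1 and -0.49 for Anapc16, neither of which separated the groups, and the other overlapping genes were not tested.

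Mfap3l, Cd320, Atp8b5 and Gucy2e were likewise all-or-none and high in Prm2-/- only. Mfap3l, a membrane protein with immunoglobulin-like domains, had 749.8, 701 and 746 normalized counts in Prm2-/- against 9.95, 16.7 and 62.3 as lowest, median and highest control (LFC 5.196, adjusted p = 0.0036 in limma). Cd320, the receptor for the vitamin B12 carrier transcobalamin, had 537, 541 and 617 against 8.84, 24.9 and 37.5 (LFC 4.57, adjusted p = 0.00181 in limma). Atp8b5, a phospholipid flippase of spermatids, had 192, 185 and 225 against 12.2, 20.98 and 43.9 (LFC 3.19, adjusted p = 0.00742 in limma), and with Prm2+/+ as the only controls its adjusted p was 0.108. Gucy2e, a guanylate cyclase known from photoreceptors, was at 0 in all 6 controls and had 58.0, 27.4 and 33.8 in Prm2-/-, so that it too passed the filter only through the group where it was high. Set against 3 counts per library as the level that a count of 0 allows, it was at least 13.4-fold higher, which covers counting error only. It was not called without any 1 of the 3 Prm2-/- libraries (adjusted p = 0.061 to 0.119 in limma), nor by edgeR, and DESeq2 gave it no adjusted p.

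The remaining 5 genes that rose were not all-or-none. Mprip, which binds myosin phosphatase and RhoA, had 1669, 1678 and 1677 normalized counts in Prm2-/- against 283, 369 and 493 as lowest, median and highest control. The 3 Prm2-/- values were close to each other and above all controls, and the LFC was 2.21 (standard error 0.16, adjusted p = 0.000644 in limma). Of 2 genes that overlap Mprip, 1700007J10Rik was tested, with an LFC of 0.46 and overlapping ranges. Sap130, a subunit of the SIN3A corepressor complex, had 168, 184 and 134 against 13.3, 25.5 and 34.2 (LFC 2.67, adjusted p = 0.00412 in limma). Irgc1, an immunity-related GTPase of the testis, had 1104, 1248 and 1340.0 against 650.0, 738 and 789.8 (LFC 0.76, standard error 0.09, adjusted p = 0.0107 in limma), and its adjusted p was 0.0737 without replicate 2 of Prm2-/- and 0.164 against Prm2+/+ alone. Parvg, a parvin of focal adhesions in blood cells, had 106, 106 and 92.9 against 27.7, 32.4 and 53.0 (LFC 1.53, adjusted p = 0.0223 in limma). Nfix, a transcription factor of the nuclear factor I family, had 92.4, 83.2 and 73.9 against 40.9, 47.5 and 49.5 (LFC 0.83, adjusted p = 0.0366 in limma). Parvg and Nfix each missed the threshold in 7 of the 9 fits that left out 1 library, with adjusted p-values of 0.0515 to 0.116 and of 0.0661 to 0.154 in limma. For Parvg these left out replicate 2 or 3 of Prm2+/-, any replicate of Prm2-/- or replicate 1 or 2 of Prm2+/+, and for Nfix any replicate of Prm2+/-, replicate 1 or 2 of Prm2-/- or replicate 1 or 2 of Prm2+/+.

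Of the 3 genes that fell, Trim24 had the highest level. Trim24 encodes a nuclear protein that reads histone marks and is a member of the TIF1 family of transcription regulators. It lies on chromosome 6 from 37870811 to 37966296. It had 1287, 1250 and 256 normalized counts in Prm2+/+, 1191, 1275 and 1139 in Prm2+/-, and 50.7, 38.6 and 31.7 in Prm2-/-. Replicate 3 of Prm2+/+ lay between the other 5 controls and Prm2-/-, and for this reason the gene was not all-or-none. The LFC was -4.54 (standard error 0.51, adjusted p = 0.00771 in limma). With Prm2+/+ as the only controls, the LFC was -4.20 with an adjusted p of 0.147 in limma, while the gene was called in each of the 9 fits that left out 1 library. N4bp1, which binds the ubiquitin ligase NEDD4, had 10.9, 12.2 and 5.28 in Prm2-/- against 53.6, 61.5 and 78.5 as lowest, median and highest control (LFC -2.67, standard error 0.24, adjusted p = 0.00274 in limma), and against Prm2+/+ alone its adjusted p was 0.0664. Mfap5, a protein of extracellular microfibrils, had 12.7, 14.2 and 9.50 against 62.3, 82.2 and 87.5 (LFC -2.60, standard error 0.16, adjusted p = 0.000175 in limma). Mfap5 is on the list of tunica and mesothelium markers, a tissue that was removed before extraction. Of the 14 genes of that list 8 were tested, their summed level was 315 to 486 in the controls and 341 to 423 in Prm2-/-, no other member was called, and 1 other member was higher in Prm2-/- without overlap.

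Of the 21 called genes, 16 were called in each of the 9 fits that left out 1 library, and the other 5 were Akap3, Irgc1, Nfix, Gucy2e and Parvg. Of the 21, 12 were called in every alternative that tested them, and Atp8b5, Trim24, N4bp1 and Nprl3 were the others that lost a call. Of the called genes, 4 lie on chromosome 11 (Gucy2e, Nprl3, Cluh and Mprip), 4 on chromosome 8 (Mfap3l, Fkbp8, Nfix and N4bp1) and 4 on chromosome 6 (Fam71f2, Akap3, Mfap5 and Trim24), where 1064, 769 and 712 of the 14187 genes were tested. Within 30 kb of the 14 all-or-none called genes, 30 other genes were tested, near 11 of the 14. Of all tested genes, limma called 0.148%, 6.89% had an unadjusted p under 0.05, and the ranges did not overlap for 4.67%. By limma and by edgeR none of the 30 was called (0 of 30), 2 had an unadjusted p under 0.05 and DESeq2 called 1, Fam71f1. These counts are near the shares of all tested genes. The ranges of the groups did not overlap for 2 of the 30, also near that share, both higher in Prm2-/-. These were Fam71f1 near Fam71f2 and Rps28 near Cd320, the latter with an LFC of 0.35, or 0.22 without replicate 3 of Prm2+/+. Fam71f1, a relative of Fam71f2 (ENSMUSG00000039742, chromosome 6, 29319140 to 29336019), had 101, 68.0 and 97.2 normalized counts in Prm2-/- against 13.3 to 43.9 in the controls (LFC 1.82, standard error 0.41, adjusted p = 0.374 in limma).

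**Figure D2:**
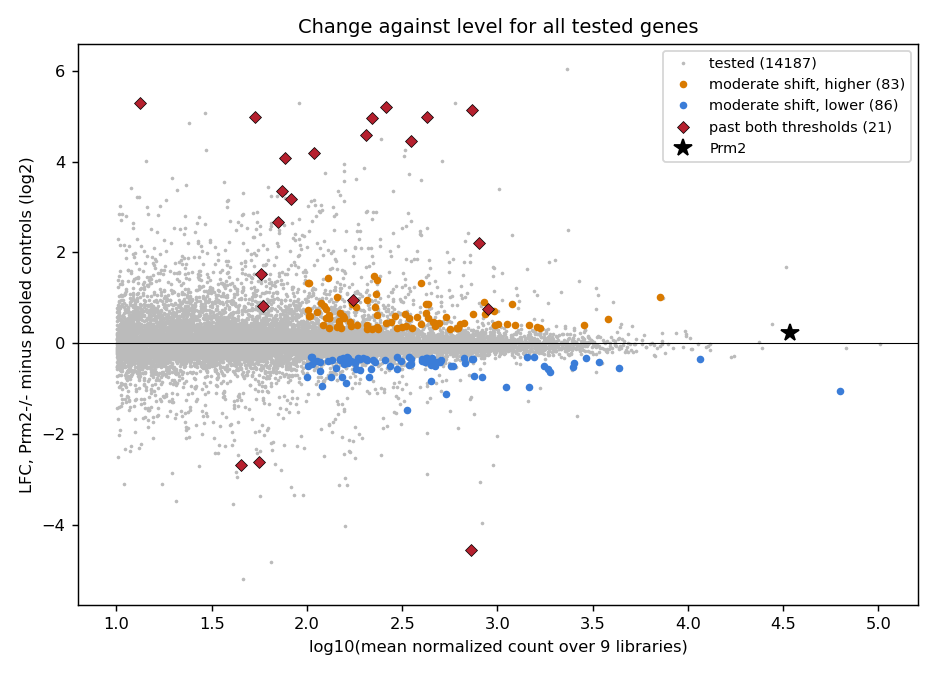
LFC between Prm2-/- and the pooled controls against log10 of the mean normalized count over the 9 libraries for the 14187 tested genes. Red diamonds are the 21 genes past both thresholds, orange and blue points the 83 higher and 86 lower genes of moderate shift (2 of the higher lie under diamonds), and the star is Prm2 with an LFC of 0.22.

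Well-measured genes of moderate shift were examined next. They were defined as genes with a mean of 100 or more, an LFC between 0.3 and 1.5 in size and ranges that did not overlap between Prm2-/- and the controls. Of the 5892 genes with such a mean, the ranges did not overlap for 2.78% in the higher and 3.14% in the lower direction at any size of LFC. Among them, 83 (1.41%) met this in the higher and 86 (1.46%) in the lower direction. The median LFC was 0.56 for the higher and -0.41 for the lower genes. The p before adjustment was under 0.05 in limma for 146 of the 169, 2 were called (Irgc1 and Akap3) and 72 overlap another annotated gene. Since these genes were chosen by their ranges, the following values are a description. Without 1 library at a time, their number was between 179 and 282, with 229 without replicate 3 of Prm2+/+. With fewer libraries the ranges overlap less easily, so a rise of this number follows in large part from the definition.

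Of the 12 higher genes of moderate shift with the smallest p, limma and edgeR called 2 (Irgc1 and Akap3), and DESeq2 called 8. All 12 had an unadjusted p under 0.05, which follows from the way they were chosen. The 6 called by DESeq2 only were Odf2 (adjusted p = 0.00107), Ccdc136 (3.14e-05), Ttll11 (4.69e-05), Hmox2 (3.91e-05), Lancl1 (0.000192) and Chd3 (0.00422). Odf2, a main protein of the outer dense fibres, had 4869, 4816 and 4660.0 normalized counts in Prm2-/- against 2767, 3196 and 3862 as lowest, median and highest control. Odf2 had an LFC of 0.55 (standard error 0.10), with an adjusted p of 0.179 in limma, and without replicate 3 of Prm2+/+, the highest control, the adjusted p was 0.0396. Ttc25, a docking factor of the outer dynein arm, had 477, 492 and 467 against 331 to 383 (LFC 0.42, adjusted p = 0.168 in limma). Ccdc136, a protein needed for the acrosome, had 9656, 10134 and 12274 against 3580 to 6376 (LFC 1.02, standard error 0.17, adjusted p = 0.115 in limma). Its lowest control was replicate 3 of Prm2+/-, without which the adjusted p was 0.0127. Ttll11, a tubulin polyglutamylase, had 178, 197 and 145 against 78.2 to 108 (LFC 0.82, adjusted p = 0.107 in limma), and without replicate 3 of Prm2-/- the adjusted p was 0.0475.

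The other higher genes were as follows. Hmox2, the constitutive heme oxygenase, had 1435, 1709.9 and 2014 normalized counts in Prm2-/- against 733 to 1078 in the controls (LFC 0.87, standard error 0.15, adjusted p = 0.121 in limma). Lancl1, a glutathione-binding protein, had 435, 421 and 444 against 264 to 344 (LFC 0.56, adjusted p = 0.168 in limma). Slu7, a splicing factor for the choice of the 3′ splice site, had 574, 537 and 601 against 403 to 447 (LFC 0.44, standard error 0.07, adjusted p = 0.0763 in limma), the smallest adjusted p among these genes after Irgc1 and Akap3. Gps2, a subunit of the NCoR corepressor complex, had 1310, 1295 and 1467 against 925 to 1147 (LFC 0.43). Chd3, a remodelling ATPase of the NuRD complex, had 316, 263 and 339 against 175 to 249 (LFC 0.63), and its adjusted p was 0.306 with all libraries and 0.0396 without replicate 3 of Prm2+/+ in limma. Rpl35, a protein of the large ribosomal subunit, had 1210, 1099 and 1163 against 809 to 1021 (LFC 0.41).

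Of the 12 lower genes of moderate shift with the smallest p, none was called by limma (adjusted p = 0.171 to 0.394) or edgeR. DESeq2 called 4 (Brd2, Rab6b, 4930527J03Rik and 1700003F12Rik). All 12 had an unadjusted p under 0.05, which follows from the way they were chosen. Brd2, a BET bromodomain protein that binds acetylated histones, had 1449.9, 1489 and 1230 normalized counts in Prm2-/- against 1625, 2098 and 2434 as lowest, median and highest control (LFC -0.56, standard error 0.13). Cenpv, a centromere protein, had 1983, 2419 and 1759 against 2521 to 3067 (LFC -0.43). Ssh2, a phosphatase of the actin-severing protein cofilin, had 664, 689 and 1469.9 against 1524 to 1848 (LFC -0.97). For Ssh2, replicate 3 of Prm2-/- was near the controls and the others were far below them, and without this library the LFC was -1.34 (adjusted p = 0.000504 in limma). Atp5c1, the gamma subunit of the mitochondrial ATP synthase, had 646, 618 and 605 against 707 to 875 (LFC -0.34). Pcbp3, a poly(C)-binding protein, had 568, 579 and 490.0 against 659 to 869 (LFC -0.43). Rab6b, a GTPase of Golgi transport, had 169, 176 and 146 against 218 to 291 (LFC -0.57), and Ubxn8, a UBX-domain protein of the endoplasmic reticulum, had 358, 399 and 387 against 472 to 599 (LFC -0.41). Spata7, a ciliary protein also known from photoreceptors, had 245, 294 and 312 against 350.0 to 437 (LFC -0.45). Tmem35a, which helps nicotinic receptors to assemble, had 121, 126 and 127 against 142 to 191 (LFC -0.46). The other 3 were the little-studied 4930527J03Rik, CR974485.1 and 1700003F12Rik, with LFCs of -0.74, -0.42 and -0.63.

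**Figure D3:**
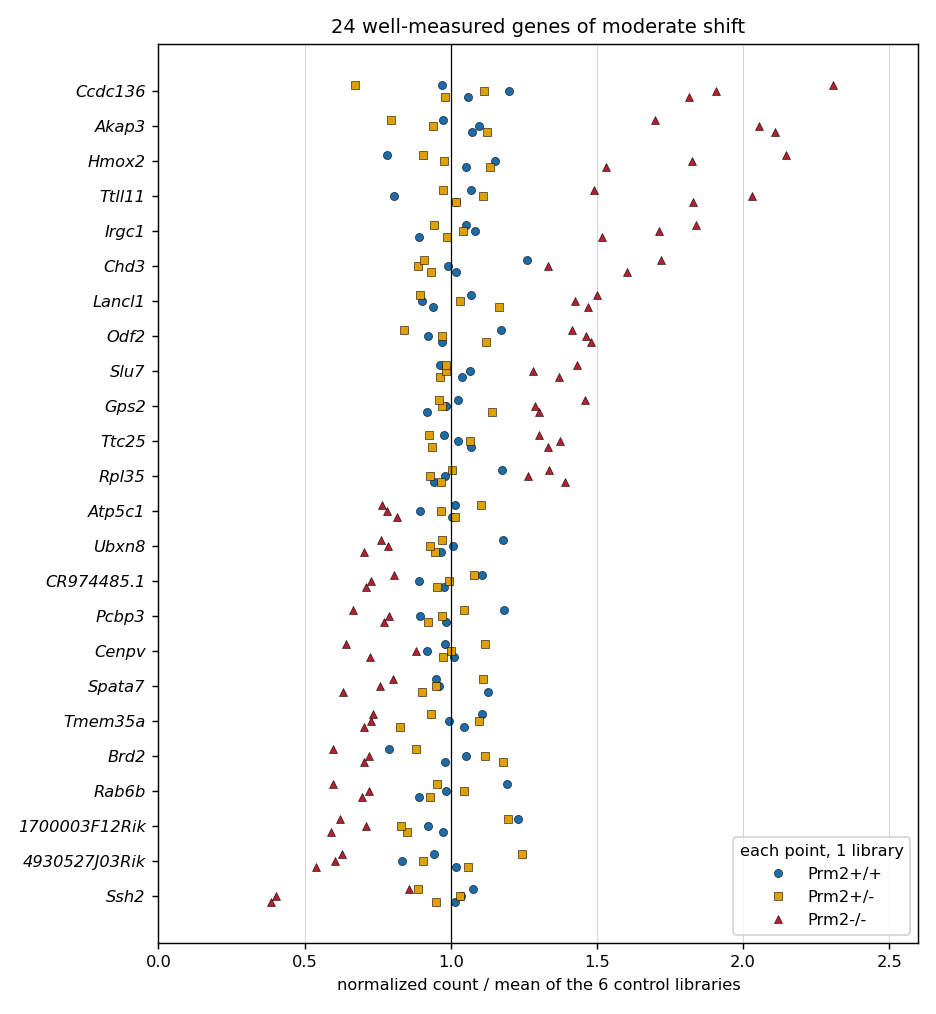
The 12 higher and 12 lower genes of moderate shift with the smallest p, as the normalized count of each library divided by the mean of the 6 controls (vertical line at 1). The Prm2-/- libraries (triangles) lie outside the range of the controls in each gene, by the way these genes were chosen, and the triangle of Ssh2 near the controls is replicate 3.

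Among the tested genes, higher levels went with smaller shifts. The median size of the LFC was 0.20 for means of 10 to under 100, 0.13 for 100 to under 1000 and 0.10 for 1000 or more. The ranges of the groups did not overlap for 3.77%, 5.48% and 9.04% of these genes, and in the last class 26 were higher and 40 were lower. With a mean of 1000 or more (730 genes), limma and edgeR called 0, the p before adjustment was under 0.05 for 74, and DESeq2 called 7. Of all tested genes limma called 0.148%, so that 0 of 730 is near that share. The genes called by limma had means under 1000 over the 9 libraries. In single groups some were higher, as was Fam71f2 with 1886 to 2287 normalized counts in Prm2-/-.

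In terms of function, 26 lists of genes were examined, of which 5 held a called gene. The lists were chosen with earlier results of these data known. Of all tested genes limma called 0.148%, and 0 calls in a list is near that share. The median LFC was within 0.15 of 0 in each of the 26, against 0.02 over all tested genes, of which the ranges did not overlap for 4.67%. The other 21 lists held 728 tested genes, of which limma and edgeR called 0, 68 had an unadjusted p under 0.05 and DESeq2 called 7 (Bad, Brd2, Gpx6, Hmox2, Ldhal6b, Psmd13 and Rpl41). Of the 11 listed protamines, transition proteins and spermatid linker histones, 7 were tested and none was called (0 of 7), with a median LFC of -0.06. Prm1 had 92615, 103874 and 111606 normalized counts as lowest, median and highest control and 99038, 104509 and 99700.1 in Prm2-/- (LFC -0.02). Tnp1 and Tnp2, the transition proteins, had LFCs of -0.10 and -0.09 with overlapping ranges. Prm3, the gene between Prm2 and Tnp2 in this cluster, had 4583, 4762 and 4655 in Prm2-/- against 4873, 5158 and 6846 (LFC -0.19, adjusted p = 0.774 in limma), so that its ranges did not overlap. Without replicate 3 of Prm2+/+, the LFC was -0.12 for Prm3, -0.05 for Prm1 and -0.04 for Tnp2.

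Of 36 tested genes for storage and translation of protamine mRNA, none was called (0 of 36) and the median LFC was 0.05. The ranges did not overlap for 2 in the higher direction, Ybx2 and Pabpn1, and for 1 in the lower. The lower gene, Strbp, had 1638, 1645 and 931 normalized counts in Prm2-/- against 1727 to 2576 (LFC -0.50, adjusted p = 0.693 in limma). Ybx2, a Y-box protein that stores mRNAs in spermatids, had 4937, 5230.0 and 6164 normalized counts in Prm2-/-, 37.1, 49.3 and 24.3 in Prm2+/+, and 4274, 41.1 and 37.1 in Prm2+/-. Replicate 1 of Prm2+/- was thus at the level of Prm2-/-. Its LFC was 6.03 with an adjusted p of 0.411 in limma (standard error 1.49), and without this library it was 7.16 (adjusted p = 5.43e-06 in limma). Tarbp2, which binds protamine mRNA, had 354, 335 and 376 in Prm2-/- and 329, 363 and 379 in Prm2+/-, against 32.3, 4.29 and 16.6 in Prm2+/+, and its LFC against the pooled controls was 2.30 (adjusted p = 0.829 in limma). From these samples, the study listed both genes as higher in Prm2-/- than in wild type. When limma used only Prm2+/+ as controls, Ybx2 rose by 7.22 on the log2 scale and passed the threshold (adjusted p = 0.00058). Tarbp2 rose by 4.61 in the same limma fit and missed it (adjusted p = 0.101). Pabpn1, a nuclear poly(A)-binding protein, had 3248, 3281 and 3585 against 1537 to 3246 (LFC 0.41, adjusted p = 0.758 in limma), and without replicate 3 of Prm2+/+ its LFC was 0.27.

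Of 39 tested factors of histone eviction and acetylation, 0 were called and 3 were lower without overlap, among them Brd2 and Phf7, a histone ubiquitin ligase of spermatids with 6042, 6184 and 5355 normalized counts in Prm2-/- against 6431 to 8515 (LFC -0.25, adjusted p = 0.67 in limma). Of 15 histone deacetylases and sirtuins, 0 were called, and the summed level of the list was 1344 to 1434 in Prm2-/- and 1422.5 to 1739 in the controls. Hdac2, a class I deacetylase, had 18.1, 16.2 and 15.8 in Prm2-/-, 119, 111 and 93.9 in Prm2+/+, and 114, 20.1 and 15.9 in Prm2+/-. Hdac2 was therefore high in Prm2+/+ and in replicate 1 of Prm2+/- (LFC -1.79, adjusted p = 0.687 in limma), and with Prm2+/+ as the only controls the adjusted p was 0.0029. Of 32 spermatid transcription regulators, Trim24 fell and no other was called (median LFC 0.02).

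The lists of the sperm tail held 3 of the called genes, while limma called 0.148% of all tested genes. Since the lists were chosen with earlier results of these data known, this count is a description. Of 38 tested axonemal dyneins and assembly factors, Zmynd10 rose, 5 were higher without overlap and none was lower (0 of 38). The summed level of this list was 15199 to 15595 in Prm2-/- and 13048 to 13791 in the controls, with no overlap. Without its 3 all-or-none genes, the remaining 35 summed to 12807 to 13116 and to 11895 to 13603, which overlapped. Besides Zmynd10 and Ttc25, the higher genes were Dnaaf2, Ccdc40 and Dnah10. Ccdc40, which sets the ruler of the axonemal repeat, had 258, 286 and 296 normalized counts in Prm2-/-, 10.96 to 61.8 in 5 controls and 256 in replicate 3 of Prm2+/+ (LFC 2.80, adjusted p = 0.456 in limma). Without that library the adjusted p was 0.0419. Dnaaf2, another assembly factor, had 1037, 996 and 1035 against 880 to 952 in 5 controls and 130 in replicate 3 of Prm2+/+ (LFC 0.64, adjusted p = 0.896 in limma), and without that library its LFC was 0.18 (adjusted p = 0.291 in limma). Dnah10, an inner arm heavy chain, had 42.6, 46.7 and 44.4 against 21.2 to 35.6 (LFC 0.64).

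Among 45 tested Cfap and radial spoke genes, Cfap126 rose and 2 were higher without overlap, with a median LFC of 0.05. The second of these, Cfap44, an axonemal protein, had 389, 235 and 452 normalized counts against 95.4 to 208 (LFC 1.09, adjusted p = 0.416 in limma). Of 29 outer dense fibre and fibrous sheath genes, Akap3 rose, Odf2 was the second higher without overlap, 1 was lower without overlap and the median LFC was 0.01. Of 25 genes of the CatSper channel and of sperm ion transport, none was called (0 of 25). Catsper1, a pore subunit, had a control mean of 186 and a Prm2-/- mean of 248, with ranges that did not overlap. Catsperg1, an auxiliary subunit, had 352, 358 and 349.5 normalized counts in Prm2-/-, 334.5 in replicate 1 of Prm2+/+, 299 in replicate 1 of Prm2+/- and 69.7 to 113 in the other 4 controls (LFC 1.48, adjusted p = 0.647 in limma). Of 34 genes of the LINC complex, the manchette and the spermatid nuclear envelope, the called one was again Cfap126.

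**Figure D4:**
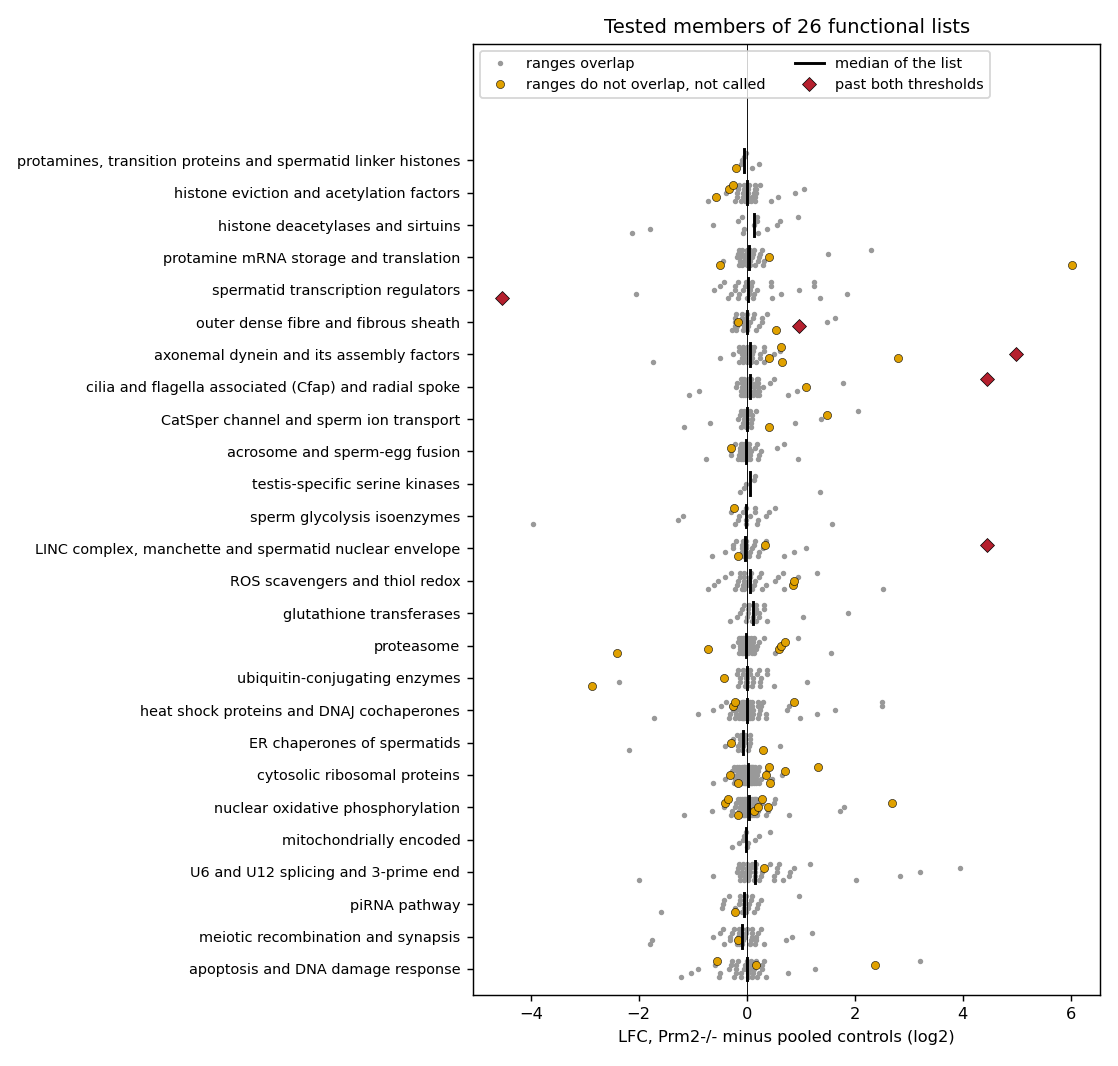
LFC of each tested member of 26 functional lists between Prm2-/- and the pooled controls, with the median of each list as a black bar. Red diamonds are called genes (Trim24, Akap3, Zmynd10 and Cfap126, the last in 2 lists), yellow points are genes whose ranges did not overlap without a call, and each median lies between -0.09 and 0.15.

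The acrosome list and the meiotic list were the other lists, of the 26, whose summed levels did not overlap between the groups. The 41 tested genes of the acrosome and of sperm-egg fusion summed to 40683 to 43744 normalized counts in Prm2-/- and to 44410 to 50888 in the controls. Much of this sum came from Crisp2, an acrosomal and tail protein, which had 14764, 14921 and 13831 in Prm2-/- against 16552, 17458 and 20395 as lowest, median and highest control. Crisp2 had an LFC of -0.30 with an adjusted p of 0.374 in limma (standard error 0.07). Without it the other 40 genes summed to 26852 to 28823 and 27647 to 30493, which overlapped. No gene of this list was called (0 of 41), and the median LFC was -0.02. The 39 genes of meiotic recombination and synapsis summed to 14573 to 15134 in Prm2-/- and to 15145 to 16139 in the controls. None of these was called (0 of 39), 1 was lower without overlap, and the median LFC was -0.09. Without their all-or-none genes, the sums still did not overlap, at 40298 to 43093 against 43827 to 49825 for the acrosome list and at 14029 to 14579 against 14637 to 15381 for the meiotic list.

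Genes for the handling of reactive oxygen species, the subject of the study, were also examined. The study reports less SOD1 and PRDX5 protein in epididymal sperm of Prm2-/- mice, and unchanged protein in testis lysates. The values here are of testis mRNA. Of 36 tested scavengers and thiol redox genes, none was called (0 of 36), 2 were higher without overlap and none was lower, with a median LFC of 0.05. Sod1, the cytosolic superoxide dismutase, had 3197, 3045 and 3524 normalized counts in Prm2-/- against 3039, 3124 and 3432 as lowest, median and highest control (LFC 0.04, standard error 0.06, adjusted p = 0.927 in limma). Without replicate 3 of Prm2+/+, the LFC of Sod1 was 0.06. Prdx5, a peroxiredoxin, had 491, 442 and 519.5 against 401, 426 and 494 (LFC 0.13, standard error 0.09, adjusted p = 0.85 in limma). The levels of both transcripts overlapped between the groups. Besides Hmox2, Gpx6, a glutathione peroxidase, had 206, 313 and 226 against 87.3 to 153 (LFC 0.86, adjusted p = 0.394 in limma). Of 23 glutathione transferases, 0 were called.

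Housekeeping machineries held no called gene, which is near the 0.148% of all tested genes that limma called. Over all tested genes, the ranges of the groups did not overlap for 4.67%. Of 46 tested proteasome genes, 3 were higher and 2 lower without overlap, among them Psmb6, the catalytic beta1 subunit, with 478, 522 and 548 normalized counts in Prm2-/- against 655 to 1238 (LFC -0.71, adjusted p = 0.438 in limma). Of 80 cytosolic ribosomal proteins, 5 were higher and 2 lower without overlap. Rpl41 had 614, 663 and 643 in Prm2-/-, 178 to 255 in 5 controls and 539.7 in replicate 1 of Prm2+/+ (LFC 1.32, adjusted p = 0.391 in limma), and without that library the adjusted p was 0.00376. Of 84 nuclear genes of oxidative phosphorylation, 5 were higher and 3 lower without overlap (median LFC 0.03), and of 10 mitochondrially encoded mRNAs none had ranges without overlap (0 of 10). The lists of sperm glycolysis (21 tested), testis-specific serine kinases (6), ubiquitin-conjugating enzymes (32), heat shock proteins (70), chaperones of the endoplasmic reticulum (22), splicing and 3′ end formation (44), piRNA pathway (25) and apoptosis and DNA damage response (40) held 0 called genes, with median LFCs between -0.08 and 0.15.

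Finally, the called all-or-none genes were set beside all others of that kind. A gene was all-or-none when the largest gap between its sorted log2(normalized count + 1) values was 2 or more, that is 4-fold, and larger than the whole range on each side of the gap. This held for 1679 genes, 11.8% of those tested. In 953 of these, 1 library stood alone, mostly at the low level (862 genes). In 82 genes exactly 3 libraries were high, in 49 of the 84 possible sets of 3. The 3 Prm2-/- libraries were that set for 12 genes, and no other set of 3 held more than 4 genes. In 18 genes, replicates 1 and 2 of Prm2-/- alone were high, with replicate 3 at the low level of the controls. In 137 genes exactly 3 libraries were low, of which 2 had the 3 Prm2-/- libraries as the low ones, whereas up to 6 genes shared another set. Groups of high libraries that mix genotypes were thus common, and Ybx2, with Prm2-/- and replicate 1 of Prm2+/- high, was one of them. The source of the all-or-none levels was not tested.

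**Figure D5:**
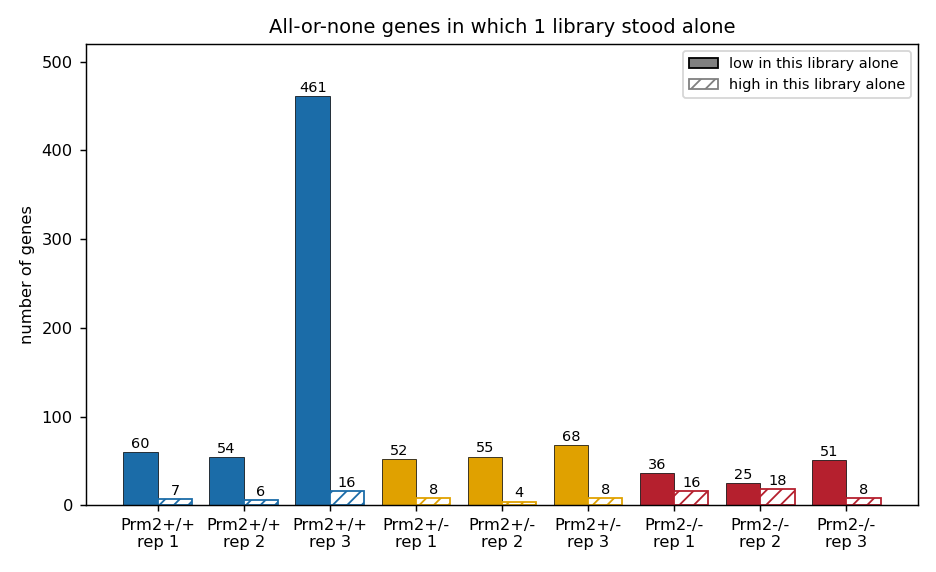
Number of all-or-none genes in which 1 library alone was low (filled bars) or high (hatched bars), for each of the 9 libraries, coloured by genotype. Replicate 3 of Prm2+/+ was alone at the low level for 461 genes, and the others for 25 to 68.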

How the data were processed

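RNA of 9 testes was sequenced from the 3′ end (QuantSeq). The authors trimmed reads with Trim Galore 0.4.5, aligned them with HISAT2 2.1 to GRCm38, quantified transcripts with StringTie 1.3.3 and normalized with DESeq2. The table the authors deposited holds a signal: gene counts over 1 size factor per library. All values came out as whole steps (tolerance 0.001), so that 3629929 to 4490411 counts per library were recovered. This sets the precision, and intervals and floors cover counting error only. Log2(value + 1) was fitted with limma 3.58.1 (trend, two-sided, Benjamini-Hochberg adjustment over 14187 genes) in R 4.3.3. edgeR 4.0.16 and DESeq2 1.42.0 on recovered counts, other pseudocounts, filters, scaling, control groups and each library left out were alternatives. The fit was also run on simulated counts. These did not copy the all-or-none levels of the data, so the run does not cover such genes. Same-numbered libraries of different groups did not deviate together, so replicate numbers were not used as a block.

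The members and gene lists were chosen with earlier results of these data known. Named genes are Prm2, the called genes with the 15 largest changes in each direction, the 12 moderate genes per direction with the smallest p, called or most abundant list members, genes that overlap all-or-none genes and genes the study names. Other named genes (Nfix, neighbours, paralogues, list members without overlap and genes called by DESeq2) were chosen after their values were seen. Sequences come from RefSeq (GRCm38.p6), and coordinates from GENCODE M21, with 99.6% of genes matched.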

Additional observations from a re-analysis of the deposited data

Results flagged for a closer look

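Among the 77 named genes, the highest or lowest of the 6 control libraries lay far from the other 5 in 15. In these, the gap to the nearest other exceeded Dixon's limit. Chance gives about 1 in 20 groups only where genes are not chosen by their values. Many of the 77 were chosen in that way, so this count cannot be set against that rate. In 11 of the 15 the library was replicate 3 of Prm2+/+. It was the highest control, in normalized counts, for Tnp2 (30661.5), Prm3 (6846.33), Strbp (2575.66), Rpl35 (1020.98) and Ubxn8 (598.888). It was the lowest control for Pabpn1 (1537), Rps28 (913.801), Trim24 (256.35), Dnaaf2 (130.385), Gpx6 (87.2918) and Uba1y (24.3091). Replicate 1 of Prm2+/- was the highest control for Ybx2 (4273.88) and Sparc (1042.02), replicate 1 of Prm2+/+ for Rpl41 (539.737), and replicate 3 of Prm2+/- was the lowest for Ccdc136 (3579.54). What sets these libraries apart was not tested.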

How the results depend on the processing

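The 18 higher and 3 lower genes became 10 and 1 with 10 or more normalized counts in every library, 46 and 6 with Prm2+/+ as the only controls, 44 and 7 with Prm2+/- as the only controls, and 74 and 30 with DESeq2. Without overlapping genes 11 were higher, and with a mean of 1 or more 6 were lower. Leaving out 1 library gave 18 to 37 higher and 3 to 13 lower genes. The 169 moderate genes became 97 without overlapping genes and 179 to 282 without 1 library. The 1679 all-or-none genes became 3052 and 804 with means of at least 1 and 50, 404 with 10 or more in every library, 945 without overlapping genes, and 1282 to 1677 without 1 library. The LFC of Prm2 was 0.13 to 0.28 without 1 library and passed the threshold in no alternative run. Without 1 library, the LFC of Prm1 was -0.05215 to 0.001667 and that of Sod1 was -0.02173 to 0.08351. The cause of these shifts was not tested, other than fewer genes or samples entering. Of the alternative values of single named genes, 3 changed sign, none of them called: Prm1 without replicate 1 of Prm2+/+ (LFC 0.001667), Tarbp2 against Prm2+/- alone (-0.007275) and Sod1 without replicate 3 of Prm2-/- (-0.02173).

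With the replicate block, 16 genes were higher and 3 lower, all 19 among the 21, and Nfix and Parvg were lost. The LFC of Prm2 with the block was 0.22. Deviations of same-numbered libraries correlated between -0.036 and 0.045, and those of other pairs between -0.036 and 0.051. No pairing by number was thus seen across the tested genes, while a pairing that touches few genes was not tested. The effect of depth by level was not tested.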

Other observations

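The following genes were noticed after their values were seen. The 2 mitochondrial rRNAs and 10 mitochondrial tRNAs that were tested all had an LFC below 0, with a median of -0.58. The ranges did not overlap for 6 of the 12, against 4.67% of all tested genes. The summed level of the 10 tRNAs was 2183 to 2440 in Prm2-/- and 1931 to 3430 in the controls, which overlapped. That of the 2 rRNAs was 11995 to 12693 in Prm2-/- and 13852.5 to 18401 in the controls, without overlap. limma and edgeR and DESeq2 called 0 of the 12, of which 8 had an unadjusted p under 0.05, and the lowest adjusted p was 0.374 in limma. mt-Rnr2, the large ribosomal RNA, had 9596, 10027 and 9769.8 normalized counts in Prm2-/- against 11125 to 14799 in the controls (LFC -0.33). mt-Rnr1, the small one, had 2549, 2666 and 2225 against 2728 to 3602 (LFC -0.33). The 10 mitochondrially encoded mRNAs overlapped between the groups, with a median LFC of -0.01.

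AY036118, a lncRNA, had 37316, 35889 and 30462 in Prm2-/- against 40355 to 110422 in the controls (LFC -1.05, adjusted p = 0.561 in limma). Limd2 had 3434, 3530.3 and 2931 against 4142 to 6177 (LFC -0.55, adjusted p = 0.411 in limma). Sparc, a matricellular protein, had 1239, 1135.5 and 1303 against 540.1 to 618 in 5 controls and 1042 in replicate 1 of Prm2+/- (LFC 0.92, adjusted p = 0.306 in limma). Without that library the LFC of Sparc was 1.06 (adjusted p = 0.000767 in limma). Of 1650 lncRNAs, limma and edgeR called 0, 122 had an unadjusted p under 0.05 and DESeq2 called 4. Over all tested genes, limma called 0.148%, and 6.89% had an unadjusted p under 0.05.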
